A study of Homo sapiens with 6 samples.

Results

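A read-through gene is an annotated gene whose transcripts begin in one gene, pass its polyadenylation site and end in the next gene on the same strand, and its symbol joins the symbols of both parents, as in PDCD6-AHRR. In the human acute myeloid leukaemia line MV4-11, 84 such rows of the gene table carried enough reads to be followed. They were chosen by their measured counts: of 137 rows whose symbol joins the symbols of 2 other rows, 84 had 30 or more counts in at least 1 of 6 libraries, 24 had fewer and 29 had 0 counts in every library. The 84 rows hold 83 different symbols, since ARMCX5-GPRASP2 stands in 2 rows, and they have 166 parent genes. All 84 were kept, and 75 of them had enough counts for the test between groups. The table has 61806 rows, 31989 of them with at least 1 count.

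MV4-11 cells carry an internal tandem duplication in FLT3. They were sequenced with a control shRNA (shNC 1 to 3) or with shRNA labelled against ATGL (shATGL 1 to 3). ATGL is the lipase of lipid droplets whose gene symbol is PNPLA2. The study names more than 1 shRNA against ATGL, and the labels do not say which of them each shATGL library carried. The sequences listed for them are reverse complements of each other, apart from the closing TT. Both groups carry a lentiviral shRNA vector, stably transduced cells were selected with puromycin, and the labels give no time after transduction. The labels do not say whether the 3 libraries of a group came from separate cultures, so p-values measure only the spread between these libraries. The libraries held between 59674064 and 74808280 counts, and the read-through genes took between 0.1297% and 0.1655% of them. PNPLA2 had 7326, 5773 and 7597 counts in shNC and 7588, 7509 and 6234 in shATGL. Its log2 fold change was −0.01 with a standard error of 0.06 (edgeR quasi-likelihood test, adjusted p = 0.979), so no fall of the targeted RNA was measured and the groups are called here by their labels. Library shATGL 3 stood apart from shATGL 1 and 2: the chi-square per gene between it and them was 84.0 and 87.6, against 12.3 between shATGL 1 and 2. Within shNC it was 11.3 between libraries 1 and 2, 21.3 between 1 and 3 and 26.2 between 2 and 3. The myeloid markers LYZ, SPI1, CSF1R, CD33 and ITGAM and the MV4-11 genes HOXA9, FLT3 and KMT2A were at 47.3 CPM or more (counts scaled to a common library size by the TMM method) in all 6 libraries. MEIS1 and MPO, of the same list, were low at 2.96 to 4.97 and 3.47 to 4.65 CPM. CD79A and KRT8 stayed at or under 2.79 CPM, and CD3D, CD2, MS4A1, HBB, COL1A2, EPCAM and KRT18 had 0 counts. In bulk RNA, fewer cells with a transcript and less of it per cell cannot be told apart.

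Transcription of most protein-coding genes ends after the nascent RNA is cut at a polyadenylation signal and the polymerase is released. Where the cut is missed, the polymerase can run into the next gene, and splicing can join exons of both genes in 1 RNA. Some of these RNAs are translated into a fused protein, and many carry an early stop codon and are substrates of nonsense-mediated decay, the pathway that degrades such RNAs. Reads from exons that a read-through gene shares with a parent match both rows, and only reads over the junction between the genes, or over exons used by neither parent, belong to the read-through RNA alone.

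GENCODE 29 on GRCh38 holds 79 of the 84 identifiers. Of these, 76 share exonic bases with both parents and 77 have a transcript tagged as a read-through. The annotation calls 68 protein-coding genes, and 42 have a transcript marked for nonsense-mediated decay, 21 of them with no coding transcript. Over the 76, the gap between the parents had a median of 2895 bp, 9 pairs of parents overlapped each other, and 58 read-through genes started within 1000 bp of the upstream parent. A median of 95.84% of a read-through gene's exonic bases lay in the exons of a parent (78 genes with a value), and 22 had no exonic base of their own. BORCS7-ASMT has a downstream parent annotated on another chromosome, and PTGER4P2-CDK2AP2P2 overlaps neither parent, so the symbol alone placed them here. The alignment build of the counts is not named apart from a mouse build, mm10, in the submitters' processing notes, although every row carries a human identifier, so all positions given here come from the annotation and not from the counted data.

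What sets a read-through RNA apart in sequence is the splice junction between its parents. In 67 of the read-through genes a transcript has an intron that runs from an exon overlapping the upstream parent to an exon overlapping the downstream one. Of 212 such junctions, counted once per transcript, 209 were read as 30-base sequences and the rest were not. None of the 209 was found in a transcript of either parent. Only transcripts listed under a parent were searched, so this depends on how the annotation assigns transcripts. The junctions below belong to the genes whose counts are described further on. Small letters are the last 15 bases of the exon before the intron and capitals are the first 15 bases of the exon after it, 5′ to 3′, with the last position before and the first after the intron in GRCh38. In SENP3-EIF4A1 the exon after the intron begins at 7572284, ahead of EIF4A1 itself, which starts at 7572706, so its capitals are bases of neither parent. PPAN-P2RY11 and RPS10-NUDT3 are each shown with a pair of junctions that differ on 1 side only.

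PPAN-P2RY11, chromosome 19, plus strand, 10111022 to 10113633: gggaaatggatcgagGTGCCAAGTCCTGCC
PPAN-P2RY11, chromosome 19, plus strand, 10111084 to 10113633: tcccagggagcccagGTGCCAAGTCCTGCC
RPL36A-HNRNPH2, chromosome X, plus strand, 101395457 to 101411936: gataagaagagaaagCTACACCAAAATTGC
LY75-CD302, chromosome 2, minus strand, 159806973 to 159783469: gcaaagtgcctctggACTGTCCTTCATCTA
POC1B-GALNT4, chromosome 12, minus strand, 89525120 to 89523673: acggcaagcaacttgGAAAGGGACAGGCGG
RPS10-NUDT3, chromosome 6, minus strand, 34418369 to 34295685: accgaattccagtttGCTGGAGTAAAAGGG
RPS10-NUDT3, chromosome 6, minus strand, 34418369 to 34341972: accgaattccagtttGTGCTACTCGTGAGC
SENP3-EIF4A1, chromosome 17, plus strand, 7571479 to 7572284: ctgcaaactcactgtCCAGGGGAATCCTCC
NME1-NME2, chromosome 17, plus strand, 51161272 to 51166827: catacaagttggcagGACCATGGCCAACCT
HNRNPUL2-BSCL2, chromosome 11, minus strand, 62715500 to 62707324: caatacaatcgggatGGACCCTCCATTTTC
JMJD7-PLA2G4B, chromosome 15, plus strand, 41836551 to 41840158: gaggccatggagaagGCAGAGGTGTCCAGG

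The deposited values are counts per row and do not say how many reads crossed these junctions. The introns skipped by the junctions shown range from 804 bp in SENP3-EIF4A1 to 122683 bp in the longer intron of RPS10-NUDT3. The RPL36A-HNRNPH2 and NME1-NME2 genes have no exonic base outside their parents, so apart from the junction itself their letters are those of RPL36A and HNRNPH2, and of NME1 and NME2.

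Many read-through rows were well counted in some libraries and had 0 counts in others. A count of 0 on a row does not show that its RNA was absent, since reads on shared exons also match a parent. Of the 84, 23 (27.4%) had 30 or more counts in 1 library and 3 or fewer in another, against 2.62% of all 17499 genes with 30 or more counts in a library and 2.49% when the read-through genes and their parents were left out. In all 23 the lowest library held 0 counts. Among the 65 with 100 or more counts in a library the count was 12 (18.5%), against 0.529% of all genes at that depth. None of 75 upstream parents with 30 counts in a library behaved in this way, and 5 of 69 downstream parents did (CMTM1, SCHIP1, ZNF177, TMEFF1 and TICAM2). The rule that chose the members used the high count and not the low one, and the shares are given as a description.

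**Figure D1:**
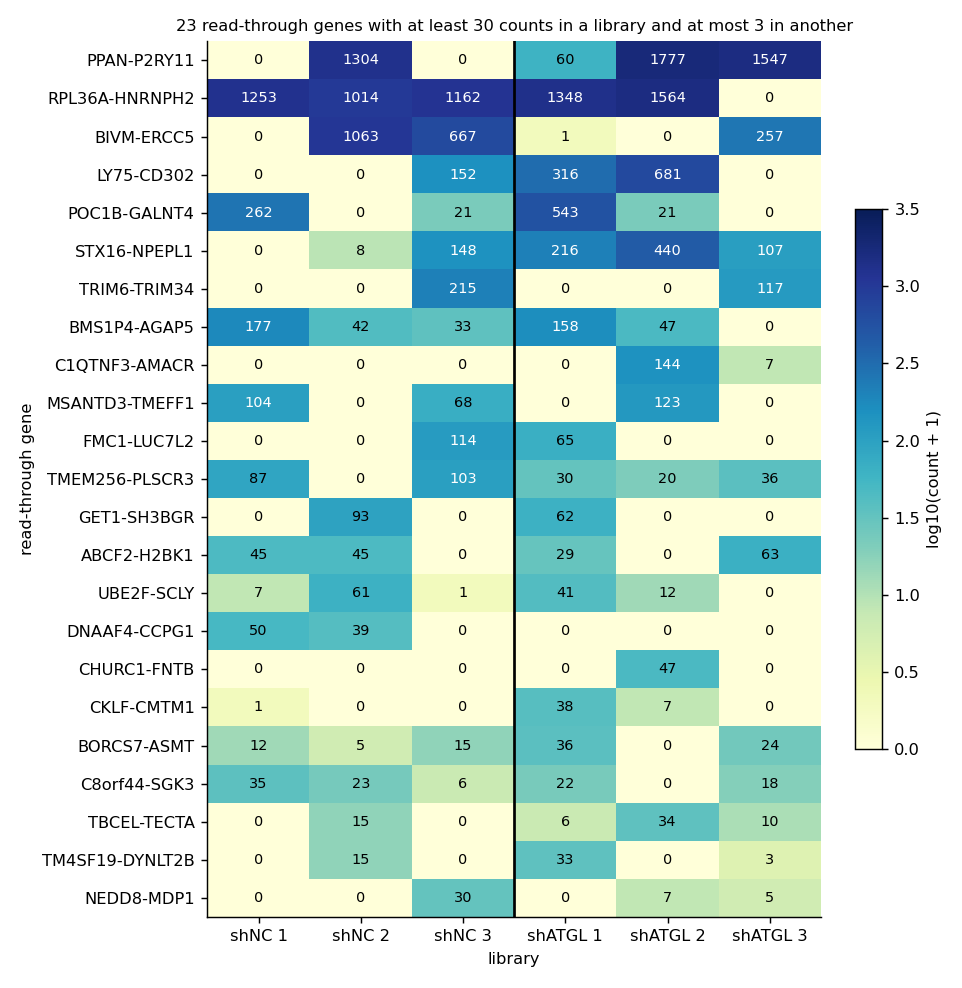
Counts of the 23 read-through genes (rows) in each of the 6 libraries (columns), coloured on a log10(count + 1) scale, with the count printed in each cell and a line between shNC and shATGL. Zeros stand beside high counts within a group, as in PPAN-P2RY11 with 0, 1304 and 0 counts in shNC.

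The libraries in which these 23 genes had 3 or fewer counts did not follow the groups. In none of the 23 was every library of one group at 30 or more counts and every library of the other at 3 or fewer, and in 21 both a high and a low library lay within the same group, 14 within shNC and 16 within shATGL. The number of members with 3 or fewer counts was 13, 10 and 10 in the shNC libraries and 7, 9 and 12 in the shATGL libraries. For 8 of the 23, only 1 library reached 30 counts, so these could not have had a whole group at 30 or more. PDCD6-AHRR, whose groups did not overlap, had 7 counts in its lowest library and so lay outside the 23. At the other end, 49 of the 84 had 30 or more counts in every library. The minimum itself was reached in both groups by 74 members, in shNC alone by 3 and in shATGL alone by 7. Just inside it lay NEDD8-MDP1, with 0, 0 and 30 counts in shNC and 0, 7 and 5 in shATGL, and TM4SF19-DYNLT2B, with 0, 15 and 0 in shNC and 33, 0 and 3 in shATGL. Just outside lay URGCP-MRPS24, with 28, 0 and 0 in shNC and 6, 0 and 0 in shATGL, and SUGT1P4-STRA6LP, whose 17 to 25 counts hardly varied.

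PPAN-P2RY11 had the widest range of all members on the log2(CPM + 0.1) scale. PPAN is a nucleolar protein of ribosome assembly and P2RY11 a receptor for extracellular ATP. The read-through gene had 0, 1304 and 0 counts in shNC and 60, 1777 and 1547 in shATGL. PPAN stayed between 53.9 and 68.9 CPM. P2RY11 had 24.9, 15.2 and 7.77 CPM in shNC and 28.6, 8.33 and 9.12 in shATGL, so its highest values stood in shNC 1 and shATGL 1, where the read-through row was at or near 0. In shNC 3 both the read-through row and P2RY11 were low. The 3 rows together held 76.6 to 96.4 CPM, a coefficient of variation (CV) over the 6 libraries of 7.76%, against 15.2% for the parents alone.

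RPL36A-HNRNPH2 lies over RPL36A, a protein of the large ribosomal subunit, and HNRNPH2, an RNA-binding splicing regulator. It was steady at 1253, 1014 and 1162 counts in shNC and 1348 and 1564 in shATGL 1 and 2, and had 0 counts in shATGL 3. HNRNPH2 had its lowest value, 53.4 CPM, in that same library, and RPL36A had 188 CPM there, within its range of 164 to 231. The summed locus was lowest in shATGL 3, at 241.7 CPM of a range up to 305.9, and its CV was 8.94%, against 8.35% for the parents alone.

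BIVM-ERCC5 had 0, 1063 and 667 counts in shNC and 1, 0 and 257 in shATGL. Its downstream parent ERCC5, the XPG endonuclease of nucleotide excision repair, had 44.8, 34.3 and 30.5 CPM in shNC and 65.6, 66.8 and 32.8 in shATGL. The 3 libraries with 0 or 1 read-through count thus had the 3 highest ERCC5 values, and BIVM, an immunoglobulin-like motif protein, also had its 3 highest values there. The sum still differed between libraries, from 46.1 to 81.3 CPM, and its highest values were in shATGL 1 and 2.

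LY75-CD302 joins an endocytic receptor of dendritic cells to a C-type lectin receptor. It had 0, 0 and 152 counts in shNC and 316, 681 and 0 in shATGL, a share of the locus of at most 9.35%. CD302 ranged from 32.9 to 42.1 CPM, LY75 had its highest value, 48.3 CPM, in shATGL 1, and the sum (CV 14.8%) varied no less than the parents alone (12.9%).

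POC1B-GALNT4 had 262, 0 and 21 counts in shNC and 543, 21 and 0 in shATGL. GALNT4, a transferase that starts O-linked glycan chains, fills 91.51% of its exonic bases, and POC1B, a centriole protein, fills 4.16%. In shATGL 1, where the read-through row was highest, GALNT4 had 120 counts, against 535 to 741 in the other 5 libraries. The sum had a CV of 7.45%, and GALNT4 alone had one of 42.5%.

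STX16-NPEPL1, over a SNARE protein of the Golgi and a putative aminopeptidase, had 0, 8 and 148 counts in shNC and 216, 440 and 107 in shATGL. RAB4B-EGLN2, over a GTPase of endosome recycling and a prolyl hydroxylase of hypoxia-inducible factors, had 905, 829 and 375 in shNC and 427, 38 and 13 in shATGL. For both the groups overlapped, and their parents were far steadier: EGLN2 ranged from 91.7 to 109 CPM and NPEPL1 from 17.6 to 20.8 CPM.

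The 6 read-through genes with the highest mean CPM showed how differently a locus can divide its reads. SENP3-EIF4A1 lies over SENP3, a protease that removes SUMO, and EIF4A1, the RNA helicase of translation initiation. It had 5679, 24358 and 10759 counts in shNC and 5492, 47550 and 11384 in shATGL, between 6.14% and 54.8% of the locus. EIF4A1 had 1140, 830 and 1170 CPM in shNC and 1010, 489 and 1030 in shATGL, lowest in the libraries where the read-through row was highest (shNC 2 and shATGL 2), and SENP3 was lowest in the same 2 libraries at 28.7 and 22.6 CPM. The 3 rows summed to 1133 to 1378 CPM. Their CV was 7.61%, against 27.1% for the parents alone.

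RPS10-NUDT3 differed from it. It joins RPS10, a protein of the small ribosomal subunit, to NUDT3, a hydrolase of inositol pyrophosphates, and had 31541, 24083 and 36362 counts in shNC and 22068, 5270 and 24012 in shATGL. In shATGL 2, where it had 68.8 CPM against 298 to 513 elsewhere, RPS10 had 846 CPM and NUDT3 had 211 CPM. NUDT3 was at its highest there, and RPS10 was close to its highest value of 851 CPM in shNC 3. The sum of that library, 1126 CPM, was nevertheless among the lowest 2 of the 6, and the summed locus (CV 12.1%) had a larger standard deviation than the parents alone, 157.1 against 85.04 CPM.

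HNRNPUL2-BSCL2 was the steadiest locus. HNRNPUL2 is an RNA-binding nuclear protein, and BSCL2 encodes seipin, a protein of lipid droplet formation. The read-through gene had 3830, 2656 and 3133 counts in shNC and 2542, 3452 and 2800 in shATGL. It had its lowest value, 34.3 CPM, in shATGL 1, where HNRNPUL2 had its highest, 202 CPM. The sum stayed between 243.7 and 252.8 CPM, a CV of 1.30% against 3.90% for the parents and 13.4% for the read-through gene. BSCL2 had 693 to 1227 counts of its own row.

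SLX1A-SULT1A3 lies over a subunit of a DNA structure-specific nuclease and a sulfotransferase of catecholamines. It had 3000, 891 and 1039 counts in shNC and 3471, 3771 and 2597 in shATGL, while SLX1A had 1552, 2452 and 3032 in shNC and 1625, 1164 and 1594 in shATGL. The 4 libraries with the highest read-through counts had the 4 lowest SLX1A values in CPM, and the sum had a CV of 9.40% against 35.6% for the parents. The region has a near-identical copy, SLX1B-SULT1A4, with which reads can be shared, so these counts are uncertain. ANKHD1-EIF4EBP3, in contrast, held most of its locus everywhere, 74.4% to 82.2%, with 11097, 8773 and 9052 counts in shNC and 13800, 14422 and 8891 in shATGL. ANKHD1 is a large ankyrin-repeat protein, and EIF4EBP3, a repressor of cap-dependent translation, had only 150 to 260 counts of its own. NME1-NME2, over a pair of nucleoside diphosphate kinases, had 5521, 3957 and 3220 counts in shNC and 1519, 2473 and 3712 in shATGL, 6.80% to 19.7% of its locus.

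One further locus was chosen after its values were seen, because the CV of its parents was the largest multiple of the CV of its sum. TEN1-CDK3, over a telomere-capping protein and a cyclin-dependent kinase, had 1358, 840 and 439 counts in shNC and 1356, 1295 and 1241 in shATGL. Its parents had their highest values in shNC 3, TEN1 at 742 counts and CDK3 at 311, where the read-through row was lowest. The sum had a CV of 7.43%, against 77.3% for the parents alone.

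**Figure D2:**
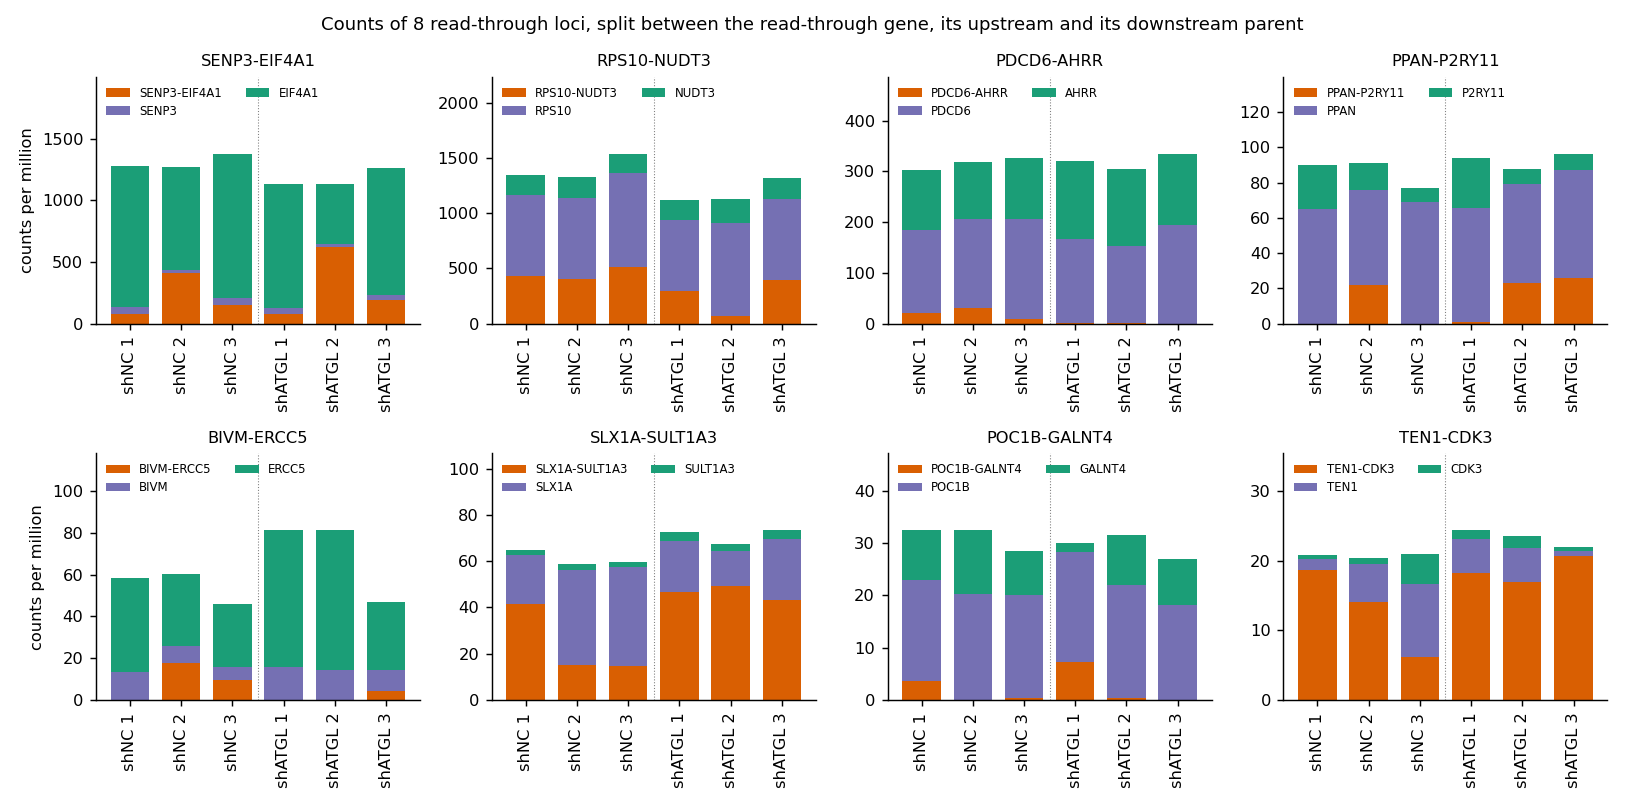
Stacked CPM of 8 loci in each library, with the read-through gene in orange, the upstream parent in purple and the downstream parent in green. The total height of SENP3-EIF4A1 stays between 1133 and 1378 CPM while its orange part runs from 74.1 to 621, and the total of BIVM-ERCC5 runs from 46.1 to 81.3 CPM.

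Over all members, the read-through rows varied most and the summed loci least. The median CV over the 6 libraries was 44.4% for the read-through genes, 12.6% for the sum of both parents and 10.1% for the sum of all 3 rows. edgeR's biological coefficient of variation, which leaves out the counting error and the difference between groups, had a median of 33.7% for the 75 tested read-through genes (quartiles 23.9% and 57.4%). It was 15.5% for 149 parents, 10.6% for 83 summed loci and 17.2% for all 19149 genes tested. The highest library was a median of 3.41 times the lowest for read-through genes, on CPM with 0.1 added, against 1.54 times for parents and 1.48 times for all genes. Their median levels were 3.57, 13.4 and 8.89 CPM, and these sets were not matched for level. The CV of the sum was below that of the parents at 64 of 84 loci. That comparison is helped by adding a level to the denominator. In CPM, the standard deviation of the sum was below that of the parents at 39 of 84 loci. The same held at 17 of the 41 loci where the read-through range was at least 10% of the mean sum in shNC. Loci such as SENP3-EIF4A1, where the sum was steadier than its parts, therefore stood beside loci such as RPS10-NUDT3, where it was not.

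**Figure D3:**
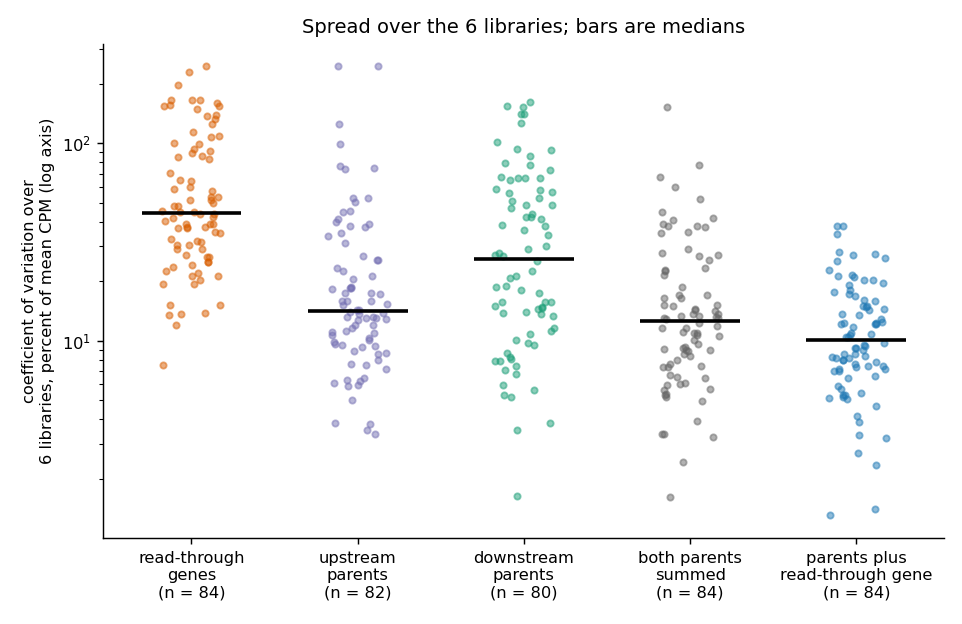
CV over the 6 libraries, in percent of the mean CPM on a log axis, with 1 point per gene or locus and a bar at the median. The medians are 44.4% for read-through genes, 14.1% for upstream parents, 26.1% for downstream parents, 12.6% for both parents summed and 10.1% with the read-through gene added.

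Read-through genes with little exonic sequence of their own varied most. The 22 genes whose exonic bases all lay in a parent's exons had a median ratio of 8.20 between the highest and the lowest library, and 11 of them were among the 23 that went from 30 or more counts to 3 or fewer. The 26 genes with up to 10% of their own bases had a median ratio of 4.11 and 8 such genes, and the 30 with more than 10% had a ratio of 2.23 and 2 such genes. Their median levels were 3.91, 2.32 and 5.45 CPM. The class with the smallest ratio thus also had the highest level, the classes were not matched for level, and the part of the level was not tested. Across 78 genes the Spearman correlation of the share of own bases with the spread was −0.451, and that of the mean level with the spread was −0.365 over all 84. These correlations run across genes of the same 6 libraries, genes are not independent replicates, and the bounds of the classes were set with the data in view. How reads on shared exons were assigned is not stated in the sources used here, and its part in the spread was not tested.

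**Figure D4:**
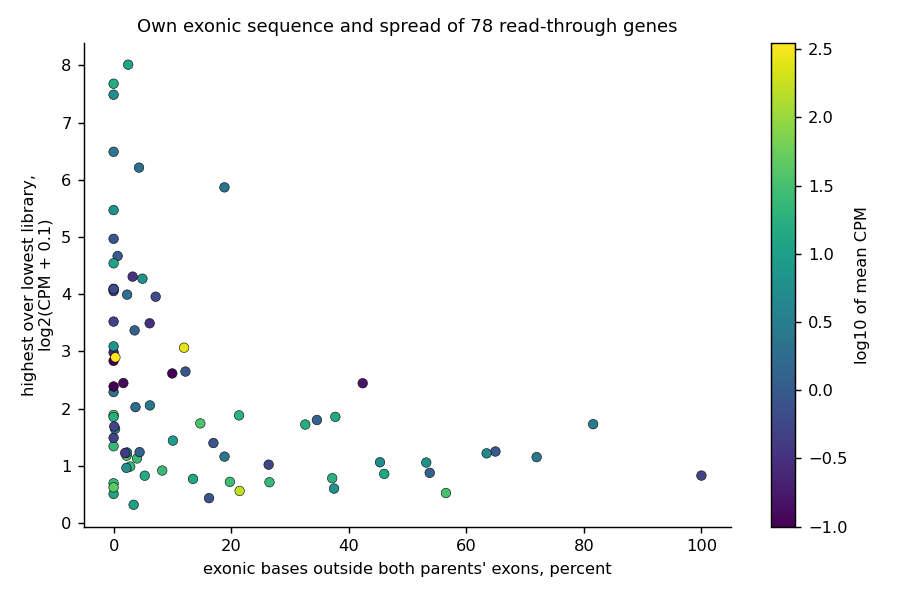
Percent of a read-through gene's exonic bases that lie outside both parents' exons (horizontal axis) against the difference between its highest and lowest library in log2(CPM + 0.1) (vertical axis), coloured by the mean level, for 78 genes. The points above 4 lie at 5% or less on the horizontal axis, except STX16-NPEPL1 at 18.86%.

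No read-through gene passed the test between shATGL and shNC. Of 75 tested, 0 were called, which took an adjusted p under 0.05 together with at least a 2-fold difference (edgeR quasi-likelihood test, Benjamini-Hochberg over all genes), against 1 of 19149 genes in all (0.00522%). At an unadjusted p under 0.05, 10 had higher and 4 had lower values in shATGL, against 5.77% and 5.94% of all genes. The 3 libraries of each group did not overlap for 8 read-through genes that were higher and 7 that were lower in shATGL, against 7.93% and 9.38% of all genes. Their median log2 fold change was 0.13, with 41 above and 34 below 0, and that of all genes was 0.01. DESeq2 called 1 read-through gene, PDCD6-AHRR, where it called 0.150% of all genes.

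PDCD6-AHRR had the largest difference among the 75. PDCD6 is a calcium-binding adaptor of membrane repair and vesicle transport, and AHRR represses the aryl hydrocarbon receptor. In GENCODE 29 the parents overlap on chromosome 5, PDCD6 at 271621 to 353856 and AHRR at 304176 to 438291, both on the plus strand. The read-through identifier itself is not in GENCODE 29, so its own position, exons and junction are not given here. The read-through gene was named as the example when the members were chosen, so its values are a description. It had 1531, 1843 and 650 counts in shNC and 43, 20 and 7 in shATGL, a mean of 20.4 ± 10.9 CPM (SD, 3 libraries) against 0.319 ± 0.237 CPM, with no overlap. The log2 fold change was −5.96 with a standard error of 0.63 (edgeR adjusted p = 0.114, DESeq2 adjusted p = 5.37e-12). Its share of the locus was 6.98%, 9.74% and 2.81% in shNC and 0.181%, 0.0855% and 0.0348% in shATGL.

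The summed locus hardly differed between the groups. The read-through row held only a small share of the locus counts, so even its full loss could move the sum only little. AHRR had 118, 113 and 122 CPM in shNC and 154, 152 and 141 in shATGL, groups that did not overlap, a log2 fold change of 0.34 with a standard error of 0.06 (edgeR adjusted p = 0.392, DESeq2 adjusted p = 0.04825). PDCD6 had 164, 174 and 196 CPM in shNC and 166, 153 and 194 in shATGL. The sum of the 3 rows was 302.7, 318.1 and 326.9 CPM in shNC and 320.9, 305.5 and 334.9 in shATGL. Its log2 fold change was 0.02 with a standard error of 0.06 (edgeR adjusted p = 0.910), and its CV was 3.88%. The mean of AHRR was 117.4 ± 4.59 CPM in shNC and 148.9 ± 7.21 CPM in shATGL (SD, 3 libraries).

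The other 4 with the smallest p had higher values in all 3 shATGL libraries. JMJD7-PLA2G4B, over a lysyl hydroxylase and a phospholipase A2, had 1008, 950 and 1051 counts in shNC and 1780, 1660 and 1151 in shATGL. In CPM these were 13.9, 16.0 and 14.8 against 24.0, 21.7 and 19.1, a log2 fold change of 0.54 with a standard error of 0.11 (edgeR adjusted p = 0.392, DESeq2 adjusted p = 0.02833). Its upstream parent JMJD7 had 510, 281 and 316 counts in shNC and 187, 128 and 308 in shATGL, a log2 fold change of −0.81 with a standard error of 0.40, while PLA2G4B had 0.68 with a standard error of 0.34. The parents thus pointed in opposite directions, and the sum of the locus had a log2 fold change of 0.32 with a standard error of 0.08 (edgeR adjusted p = 0.383).

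ZHX1-C8orf76 lies over a zinc-finger homeobox repressor. It had 113, 118 and 129 counts in shNC and 196, 203 and 217 in shATGL, a log2 fold change of 0.73 with a standard error of 0.20. Its upstream parent ZHX1 had 73.8 and 76.3 CPM in shATGL 1 and 2 and 32.4 in shATGL 3, below all 3 shNC libraries (35.2 to 49.0), and C8orf76 stayed between 21.5 and 26.1 CPM. The remaining 2 are built of pseudogenes. PKD1P6-NPIPP1 differed by 0.51 on the log2 scale (standard error 0.12) and PDXDC2P-NPIPB14P by 0.53 (standard error 0.15), each with an edgeR adjusted p of 0.392. Both lie in duplicated sequence of chromosome 16 with several near-identical copies, so their counts are uncertain, and their summed loci had values of 0.43 and 0.50. PKD1P6 had 15.8, 19.1 and 16.4 CPM in shNC and 23.6, 23.6 and 21.2 in shATGL. NPIPP1, PDXDC2P and NPIPB14P had groups that overlapped.

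The other 9 read-through genes with an unadjusted p under 0.05 did not pass the adjusted threshold either, and they are named here for their values. IFNAR2-IL10RB, over subunits of the interferon and interleukin-10 receptors, had 210, 109 and 239 counts in shNC and 137, 1251 and 865 in shATGL, so its groups overlapped through shATGL 1. BORCS8-MEF2B differed by 1.53 on the log2 scale, ARHGAP11A-SCG5 by 1.06, RTEL1-TNFRSF6B by 1.03, SLX1A-SULT1A3 by 0.97 and ANKHD1-EIF4EBP3 by 0.29. Lower values in shATGL were measured for RBM14-RBM4, over a pair of RNA-binding proteins of splicing, at −0.92, for RPL17-C18orf32, over a ribosomal protein, at −0.82, and for DNAJC25-GNG10, over a chaperone cofactor and a G-protein subunit, at −0.34.

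Of 149 tested parents, 0 were called. At an unadjusted p under 0.05, 11 were higher and 15 lower in shATGL, against 5.77% and 5.94% of all genes, and the groups did not overlap for 13 and 16, against 7.93% and 9.38%. Their median log2 fold change was −0.02. DESeq2 also called 0 of 161 parents, but 5 had an adjusted p under 0.05 there, all higher in shATGL and named for their values. MSH5 had the smallest, with a log2 fold change of 0.68 (DESeq2 adjusted p = 6.85e-05), and the others were TTLL3, AGAP5, SAPCD1 and AHRR. Of 83 summed loci, 0 were called, against 0.00526% of the rows of the table with summed loci. At an unadjusted p under 0.05, 11 were higher and 10 lower, against 5.86% and 5.99% of those rows, and the smallest edgeR adjusted p was 0.383. DESeq2 called 0 of the 83 sums, and 2 had an adjusted p under 0.05 there, the smallest 0.01122. The sums lay between −0.38 and 0.67 on the log2 scale, while the read-through genes lay between −5.96 and 2.60. A log2 difference of 1 or more was measured for 14 of 75 read-through genes and for 0 of their summed loci. The median read-through share of a locus was 7.08%. At most loci the sum could therefore move only little when the read-through row alone changed, and the narrower range is partly set by that.

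**Figure D5:**
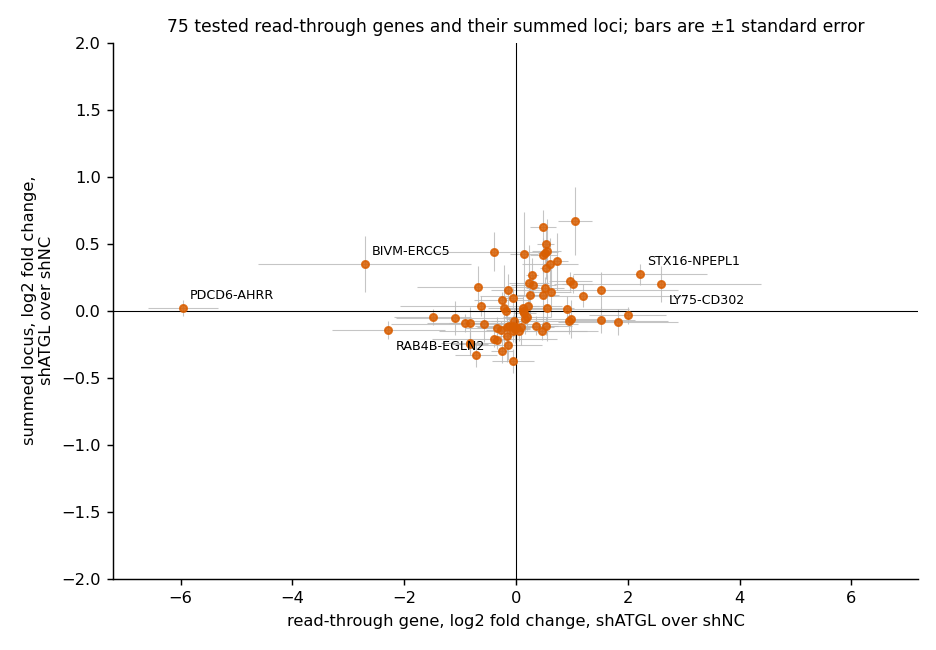
Log2 fold change of shATGL over shNC for each of the 75 tested read-through genes (horizontal axis) against that of its summed locus (vertical axis), with bars of 1 standard error. The points spread from −5.96 to 2.60 horizontally and from −0.38 to 0.67 vertically, and PDCD6-AHRR at the left edge lies close to 0 on the vertical axis. A read-through row with a small share of its locus can move the sum only little.

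The counts of calls moved most when shATGL 3 was left out. Without it, 11 of 79 tested read-through genes had an adjusted p under 0.05 in edgeR, against 14.0% of all genes, and 3 of them also passed the fold threshold (PDCD6-AHRR, RTEL1-TNFRSF6B and NME1-NME2), against 1.60% of all genes. JMJD7-PLA2G4B had an adjusted p of 0.009315 in that edgeR fit, without reaching a 2-fold difference. RTEL1-TNFRSF6B had a log2 fold change of 1.31 and NME1-NME2 one of −1.25 in that fit. Of 151 tested parents, 29 had an adjusted p under 0.05 in that edgeR fit, against 14.0% of all genes. Of these, 3 were called, against 1.60% of all genes, SAPCD1 and EGFL8 higher and JMJD7 lower. Of 83 summed loci, 32 had an adjusted p under 0.05, against 14.5% of the rows of that table, with a smallest edgeR adjusted p of 0.0001976, and 0 passed the fold threshold, against 1.62%. Without shNC 1, SLX1A-SULT1A3 was the 1 read-through gene called, against 0.0100% of all genes.

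As shares of the locus, the read-through genes had a median of 7.08% over members, from 0% to 94.8%. The share was under 5% for 37 and over 50% for 11. These are shares of counts and not of molecules, since the rows differ in exonic length. The groups did not overlap for 5 of the 84 shares, 1 higher and 4 lower in shATGL, where 7.93% and 9.38% of all genes did not overlap in CPM. The 5 are named although the values chose them. PDCD6-AHRR and RPS10-NUDT3 are described above, the latter with 32.2%, 30.5% and 33.3% in shNC and 26.5%, 6.11% and 30.3% in shATGL. CORO7-PAM16 had 14.9%, 7.68% and 9.63% in shNC and 5.99%, 0.562% and 5.30% in shATGL. FAM47E-STBD1 had 56.6%, 64.7% and 58.7% in shNC and 56.3%, 2.79% and 50.1% in shATGL. BORCS8-MEF2B was the only one higher in shATGL, with 5.27%, 8.02% and 5.46% against 2.21%, 3.79% and 0.449%. Each had an exact two-sided permutation p of 0.1, the smallest that 3 against 3 libraries allow. For 3 of the 4 that were lower, shATGL 2 had the lowest share by far. The higher of the other 2 lay close below the lowest shNC library for RPS10-NUDT3 and FAM47E-STBD1, and further below it for CORO7-PAM16.

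Factors that end transcripts and factors that degrade read-through RNA were measured as background lists. Of 36 factors of 3′ end cleavage, polyadenylation and termination, all were tested and 0 were called, against 0.00522% of all genes. At an unadjusted p under 0.05, 3 were higher and 1 lower, against 5.77% and 5.94% of all genes, and the median log2 fold change was 0.01, against 0.01 for all genes. CPSF1, the large scaffold of the cleavage complex, had 270, 276 and 271 CPM in shNC and 327, 318 and 297 in shATGL, a log2 fold change of 0.21 with a standard error of 0.06. TTF2, a termination factor that releases polymerase, had 0.22 and CLP1, a kinase of the cleavage machinery, had −0.24. RBBP6, which activates cleavage, had 40.2, 42.2 and 37.8 CPM in shNC and 95.4, 92.0 and 42.0 in shATGL. It was high in shATGL 1 and 2 and at the control level in shATGL 3.

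Of 26 factors of nonsense-mediated decay, 0 were called and 2 were higher and 2 lower at an unadjusted p under 0.05, against 5.77% and 5.94% of all genes, and the median log2 fold change was 0.03. UPF2, a core factor of the pathway, had 38.2, 43.5 and 35.8 CPM in shNC and 89.7, 91.7 and 33.5 in shATGL. SMG1, the kinase that starts decay, had 70.0, 70.0 and 55.2 in shNC and 105, 114 and 63.5 in shATGL. Both were again high in 2 of the 3 shATGL libraries. RUVBL1, an ATPase that supports SMG1, had a log2 fold change of −0.21, MAGOH of the exon junction complex one of −0.22 and UPF3A one of 0.27. Without shATGL 3, 11 of the 36 and 8 of the 26 factors had an adjusted p under 0.05 in edgeR, against 14.0% of all genes, and 2 and 1 of them were called, against 1.60%. The part of these factors in the read-through counts was not tested.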

How the data were processed

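The authors deposited raw read counts per Ensembl gene, without normalization, for 3 shNC and 3 shATGL libraries, after removing low-quality reads. How reads were aligned and counted, with which annotation and whether by strand, is not given in the sources used here. Read-through genes and their parents were matched by symbol, and positions and sequences were taken from GENCODE 29 by Ensembl identifier. Counts were analysed with edgeR 4.0.16 in R 4.3.3 (filterByExpr, TMM, glmQLFit and glmQLFTest without a block) over 19149 genes, with Benjamini-Hochberg adjustment. A call took an adjusted p under 0.05 and a difference of 2-fold or more. Summed loci were fitted in the same way after the rows of each locus had been replaced by their sum. DESeq2 1.42.0 was the alternative. Shares were compared by exact permutation over 20 relabellings. The fits were tested on simulated data. Members, lists and classes were chosen with earlier results of these data known. Genes named singly are PNPLA2, PDCD6-AHRR, the 8 read-through genes with the largest spread, the 6 with the highest mean CPM, the 5 with the smallest p, those next to the minimum, each with both parents, and up to 5 of each background list. The text says where another gene is named for its values. Some genes of the marker and background lists are not reported here. Alternatives were DESeq2's size factors, other filters, a replicate block, each library left out, other minimum counts and another pseudocount. Same-numbered libraries did not deviate together in every pair (r = 0.00143, 0.141 and 0.226), so no pairing was used. Libraries with different numbers had r from −0.200 to 0.121, below the higher same-numbered values. Depth of 59674064 to 74808280 counts limits the precision of rows near 30 counts. Python 3.11.15, pandas 2.3.3 and matplotlib 3.10.9 were used.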

Additional observations from a re-analysis of the deposited data

How the results depend on the processing

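The absence of calls among read-through genes, parents, summed loci and both background lists held in edgeR under DESeq2's size factors, with no filter and under a filter of 10 counts in each library. For read-through genes and parents it also held under other minimum counts for members. DESeq2 called 1 read-through gene. Leaving out 1 library gave 0 to 3 called read-through genes, 0 to 3 parents, 0 to 2 factors of 3′ end processing and 0 to 1 of the decay list, and the highest of each came without shATGL 3, with 0 summed loci called in any of these fits. With the replicate number as a block, 0 read-through genes, 0 parents and 0 summed loci were called, and the block changed no call. An unadjusted edgeR p under 0.05 was reached by 19 read-through genes and 33 summed loci with the block, against 14 and 21 without it. The edgeR adjusted p of PDCD6-AHRR was 0.0535 with the block and 0.114 without it. The log2 fold change of PNPLA2 lay between −0.024 and 0.0327 when each library was left out, and was positive in 2 of those fits, without shNC 3 (0.0327) and without shATGL 2 (0.018). With at least 10 counts in every library PDCD6-AHRR was no longer tested. The number of loci whose shares did not overlap was 11 to 18 with 1 library left out, where fewer libraries have to be apart. The median spread of 1.77 on the log2 scale became 1.03 with a pseudocount of 1 CPM. The 23 genes with 30 or more and 3 or fewer counts became 12 at 100 or more counts and 18 to 22 with a library left out. By standard deviation, chosen after seeing the data, 39 of 84 sums varied less than their parents, against 64 by CV. Rows near 30 counts and reads on shared exons limit what these counts can show.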
